A study of Gallus gallus with 6 samples.

Results

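Iron and copper handling genes were followed through the feather cycle in the papilla ectoderm of White Leghorn chickens. The 9 genes were chosen by function, with earlier results of these data known, out of 23724 genes in the expression table. They are HEPHL1, TFRC, FTH1, SLC40A1, SLC11A2, HMOX1, ATP7A, ATP7B and SLC31A1. HEPHL1 was in addition picked for its peak in late growth, so its levels are given below as a description without a test. Of the 9 genes, 8 have a row by their symbol, 7 exceed a mean of 1 TPM (transcripts per 1e6 transcripts, a level that takes gene length into account) over all libraries, and 6 remain for testing once HEPHL1 is set aside. ATP7A was not analysed here. ATP7B is listed at 0 TPM in all 6 libraries.

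The papilla ectoderm is the thin epidermal layer that surrounds the dermal papilla at the base of the follicle and holds feather progenitors. Contour feathers of untreated White Leghorn birds were plucked and the ectoderm collected at 3 weeks of regeneration (early growth), 7 weeks (late growth) and 10 weeks (resting). The methods state for the whole study that the birds were males of 6 months to 1 year. Bulk RNA-seq yielded 2 libraries for each phase, and the sources used here do not say whether the 2 come from separate birds, so the p-values measure only the spread between libraries, which may be technical.

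Iron enters most animal cells bound to transferrin through the transferrin receptor, leaves the endosome as ferrous iron, is stored in ferritin, and is exported by ferroportin. Ferroxidases that carry copper oxidise the exported iron so that transferrin can take it up, which ties the handling of both metals together. In vertebrate cells short of iron, iron regulatory proteins stabilise the transferrin receptor mRNA and hold back translation of ferritin and ferroportin. HEPHL1, also called zyklopen, is such a membrane ferroxidase, and mice that lack it have curled whiskers.

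The samples held keratinocyte transcripts in every phase, together with transcripts of other tissues that differ between phases. KRT5, a keratin of basal cells, lay between 2959 and 5387 TPM in all 6 libraries. A list of 15 keratinocyte markers took 1.14 to 2.07% of TPM. The share of smooth muscle markers was 5.06 and 5.19% at rest, at most 0.327% in early growth and at most 0.0481% in late growth. Erythroid markers, of which 7 of 20 have no row by their symbol, took 5.58 and 5.61% in the resting phase and at most 0.150% in any growth library. Fibroblast markers went from 0.276 and 0.282% in early growth to 0.0498 and 0.0520% in late growth and 0.417 and 0.423% at rest, and macrophage and leukocyte markers from 0.0498 and 0.0486% to 0.00786 and 0.00806% and then 0.0864 and 0.0818%. Endothelial markers took 0.0275 and 0.0242%, 0.00179 and 0.00262%, and 0.0139 and 0.0146% in the same order. Of the marker genes with a row, none was at 0 in all libraries, and up to 6 of 13 erythroid and 8 of 18 macrophage and leukocyte markers were at 0 in single growth libraries. In such bulk samples, fewer cells of a type and less RNA per cell cannot be told apart. Early growth replicate 2 lists 814 of the 13063 tested genes at 0 TPM and replicate 1 lists 124. The late growth libraries list 546 and 577 and the resting ones 405 and 433, so the early growth libraries lie on either side of all others. SMAD4, a signalling gene in general use, is at 0 in early growth replicate 2 only. A value of 0 is therefore reported here only as listed.

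Ferritin heavy chain was by far the most abundant of these transcripts, and the order of the others changed between growth and rest. FTH1 ranged from 2226 to 3049 TPM and had a higher mean than 99.3% of the tested genes. In late growth TFRC (46.0 and 51.2 TPM), HMOX1 (44.6 and 43.1 TPM) and HEPHL1 (40.5 and 42.0 TPM) came next. SLC31A1 (22.8 and 24.1 TPM), SLC11A2 (15.9 and 17.0 TPM) and SLC40A1 (12.6 and 13.2 TPM) followed. At rest SLC40A1 (38.6 and 40.2 TPM) stood second. The pair of SLC11A2 (18.3 and 20.6 TPM) and HMOX1 (14.8 and 21.6 TPM) could not be ordered, since their libraries overlap, and the same holds for TFRC (12.7 and 11.2 TPM) and SLC31A1 (11.3 and 9.53 TPM). HEPHL1 came last of the 7 (3.06 and 1.93 TPM).

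**Figure D1:**
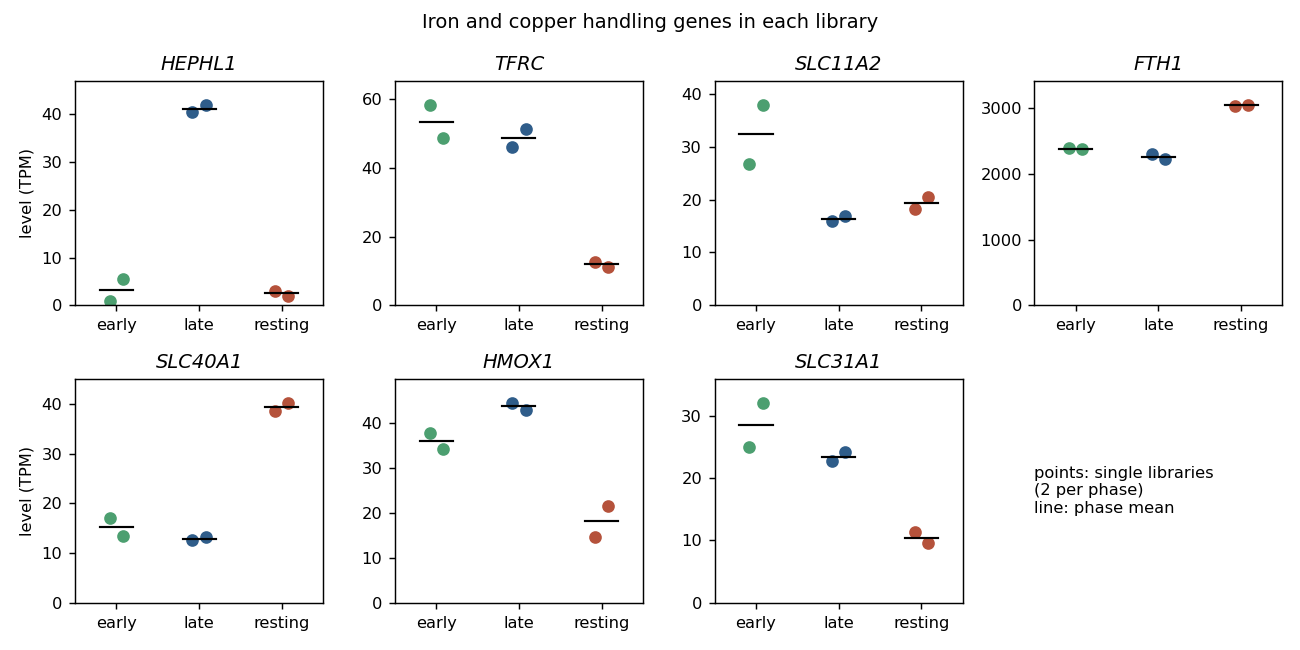
Level in TPM of the 7 genes with a mean above 1 TPM, for each library of early growth, late growth and rest; each panel has its own axis from 0, points are libraries (2 per phase) and lines are phase means. HEPHL1 stood at 40.5 and 42.0 TPM in late growth against at most 5.47 TPM in the other libraries, TFRC was lowest at rest and SLC40A1 highest at rest.

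HEPHL1 was abundant in late growth alone among the 3 phases, which is the pattern for which it was picked. Its level was 0.928 and 5.47 TPM in the early growth libraries, 40.5 and 42.0 TPM in the late growth libraries and 3.06 and 1.93 TPM in the resting ones. The mean of late growth was 12.9 times that of early growth and 16.5 times that of rest. The early growth libraries lie on either side of the resting ones, so early growth and rest overlap. The late growth libraries are also those in which fibroblast, leukocyte, endothelial and smooth muscle markers were lowest. The keratinocyte list took its highest share there (2.01 and 2.07% of TPM), but its genes did not move together. From early to late growth 9 of the 15 rose and 4 fell at an adjusted p under 0.05 (limma), beside 5.24% and 28.4% of all tested genes. KRT5 fell from 4832 and 5387 TPM to 3962 and 4126 TPM, and KRT14 from 4173 and 4470 TPM to 3078 and 2997 TPM. The part of these markers in the HEPHL1 level was not tested. HEPH, the closest relative of HEPHL1 among the ferroxidases, had another profile: 68.7 and 70.5 TPM, then 32.6 and 39.7 TPM, then 41.6 and 42.0 TPM. CP, the ceruloplasmin ferroxidase of plasma, was low, at 11.5 and 7.74 TPM, 2.62 and 4.27 TPM, and 3.27 and 2.58 TPM. In late growth HEPHL1 and HEPH were thus at similar levels, whereas HEPH was well above HEPHL1 in the other libraries.

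The genes whose profile was most like that of HEPHL1 were sought by Pearson correlation of log2(TPM + 1) over the 6 libraries, among the 10465 tested genes that have a symbol and no library at 0. They were RPL6, a ribosomal protein (r = 0.996), SYT8, a synaptotagmin (r = 0.993), KRT8, a keratin of simple epithelia (r = 0.988), BTBD1 (r = 0.988) and RPL35, a ribosomal protein (r = 0.986). Altogether 31 genes had r above 0.95, and all share the same libraries, so this is a description. Only SYT8 of the 5 had a rise of similar size, from 0.815 and 3.65 TPM in early growth to 29.6 and 28.6 TPM in late growth and back to 2.84 and 0.841 TPM at rest. RPL6, by contrast, moved between 3398 and 4568 TPM.

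From early to late growth SLC11A2 was the only one of the 6 tested members to be called. The comparison asks what differs between the phase of constant growth and the phase near its end. Changes are given as log2 fold changes of TPM + 1 from limma, with 13063 genes fitted together and p adjusted by Benjamini-Hochberg, and a gene is called at an adjusted p under 0.05. Of the 6 tested members 1 fell and 0 rose (0 higher at an unadjusted p under 0.05 as well), where 28.4% of all tested genes fell and 5.24% rose, 33.6% in either direction. The median change of the 6 was −0.17 and that of all tested genes −0.31.

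SLC11A2, which carries ferrous iron across the endosomal membrane, was the member that fell. It went from 26.8 and 38.0 TPM to 15.9 and 17.0 TPM, without overlap. On the log2 scale the difference was −0.92 with a standard error of 0.20 (adjusted p = 0.018). The call was lost with median-of-ratios scaling (−0.59, adjusted p = 0.105), with quantile normalization (−0.55, adjusted p = 0.13), with only the 2 phases in the fit (adjusted p = 0.0518), without late growth replicate 1 (adjusted p = 0.115) and without late growth replicate 2 (adjusted p = 0.0912).

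The remaining members were not called between the growth phases. TFRC, the transferrin receptor, stood at 58.3 and 48.6 TPM in early growth against 46.0 and 51.2 TPM in late growth, and the libraries overlap. The 95% interval of its log2 fold change ran from −0.50 to 0.24. FTH1 went from 2394 and 2373 TPM to 2300.4 and 2226 TPM, with an interval of −0.18 to 0.03. With quantile normalization alone FTH1 was called lower (−0.29, adjusted p = 0.0171), and its direction turned under median-of-ratios scaling (0.27, adjusted p = 0.0757). SLC40A1, or ferroportin, the iron exporter of animal cells, was at 17.1 and 13.4 TPM in early growth, with an interval of −0.64 to 0.20. HMOX1, the heme oxygenase that frees iron from heme, was at 37.9 and 34.4 TPM, with an interval of −0.20 to 0.75. SLC31A1, the CTR1 copper importer, was at 25.0 and 32.1 TPM, with an interval of −0.72 to 0.20. These intervals hold for the main scaling and do not cover the choice of scaling. For FTH1 the values under median-of-ratios scaling and quantile normalization lay outside its interval, on opposite sides. The direction of TFRC, SLC40A1 and SLC31A1 also turned under median-of-ratios scaling and quantile normalization.

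**Figure D2:**
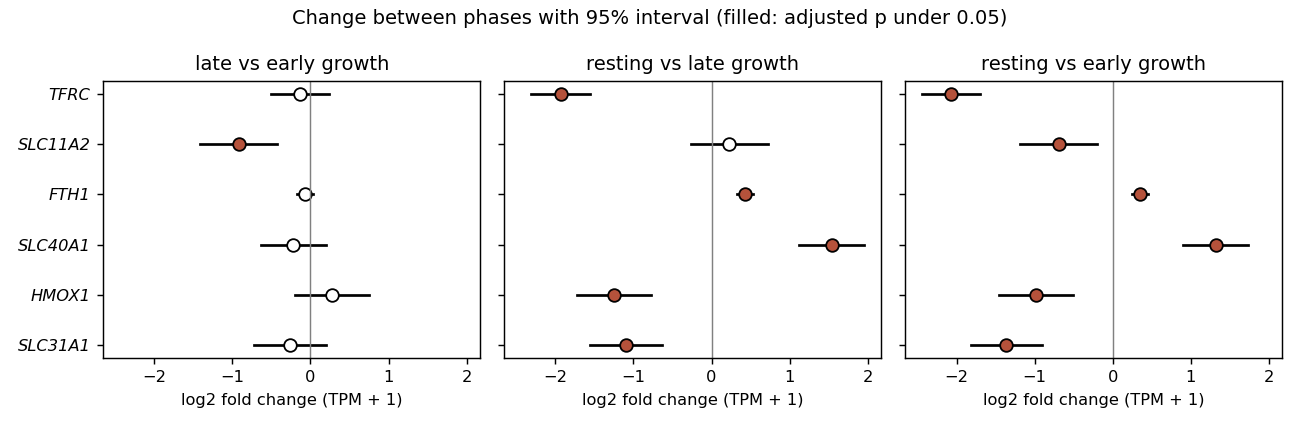
Log2 fold change of TPM + 1 for the 6 tested members in the 3 comparisons, with 95% intervals from limma; filled points passed an adjusted p of 0.05. Between the growth phases SLC11A2 alone passed, while at rest TFRC, HMOX1 and SLC31A1 were lower and SLC40A1 and FTH1 higher than in either growth phase.

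On entry into rest, TFRC, HMOX1 and SLC31A1 fell while SLC40A1 and FTH1 rose, and SLC11A2 was not called. The comparison of late growth with rest asks what changes when the follicle stops growing. Of the 6 tested members 2 rose and 3 fell, where 24.7% of all tested genes rose and 23.1% fell, 47.8% in either direction. The median change of the 6 was −0.44 beside 0.02 for all tested genes. Over the same step the keratinocyte markers fell in 11 of 15 genes and rose in 1 (median −0.55), from 2.01 and 2.07% to 1.14 and 1.15% of TPM, and their part in the falls of TFRC, HMOX1 and SLC31A1 was not tested. All 5 calls held under each of the 16 alternatives that changed the scaling, the filter, the pseudocount, the model or the libraries.

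TFRC fell about 4-fold. It went from 46.0 and 51.2 TPM in late growth to 12.7 and 11.2 TPM at rest, and both resting libraries lie far below all growth libraries. On the log2 scale TFRC changed by −1.94 with a standard error of 0.15 (adjusted p = 0.00020), and the change stayed between −2.05 and −1.77 under the alternatives. TFRC is also used by developing red cells, and erythroid markers were highest in the resting libraries, in which TFRC was lowest; their part in the TFRC level was not tested.

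SLC40A1 rose about 3-fold, from 12.6 and 13.2 TPM to 38.6 and 40.2 TPM. No growth library came above 17.1 TPM. SLC40A1 thus changed by 1.54 on the log2 scale, with a standard error of 0.17 (adjusted p = 0.00077), and by between 1.47 and 1.71 under the alternatives. Macrophages are a known site of ferroportin, and the macrophage and leukocyte markers rose with it, from at most 0.00806% of TPM in late growth to at least 0.0818% at rest. The same markers stood at 0.0498 and 0.0486% in early growth, where SLC40A1 was at 17.1 and 13.4 TPM. Erythroid and smooth muscle markers were highest at rest too, at 5.58 and 5.61% and at 5.06 and 5.19% of TPM. In the growth libraries they took at most 0.15% and 0.327%. The part of any of these markers in the rise of SLC40A1 was not tested.

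FTH1 rose by a smaller step that was nevertheless larger than the spread between libraries. It went from 2300.4 and 2226 TPM to 3041 and 3049 TPM, or 0.43 on the log2 scale with a standard error of 0.04 (adjusted p = 0.00045). When TPM were rescaled without erythroid and muscle genes the change was 0.60. The rescaling took those genes out of the total and did not remove FTH1 transcripts that such cells may hold. FTL, annotated as the ferritin light chain and looked at only after its values had been seen, went the other way, from 73.1 and 59.9 TPM to 20.1 and 26.8 TPM (−1.47, adjusted p = 0.0010). FTL was at 67.8 and 71.4 TPM in early growth, so both ferritin genes kept to a similar level through growth and parted at rest. From late growth to rest erythroid markers rose from at most 0.102% to at least 5.58% of TPM. Macrophage and leukocyte markers rose from at most 0.00806% to at least 0.0818%. The part of such cells in the FTH1 and FTL levels was not tested.

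Ratios within a library stay the same when all its values are multiplied by a common factor, but quantile normalization can change them. For each TFRC transcript there were 41.1 and 48.9 FTH1 transcripts in the early growth libraries, 50.0 and 43.5 in the late growth libraries, and 239 and 271 at rest. The log2 ratio of TFRC to FTH1 was −5.36 and −5.61, −5.64 and −5.44, and −7.90 and −8.08. The ratio of TFRC to SLC40A1, looked at after the values had been seen, was 3.40 and 3.62, then 3.66 and 3.87, and at rest 0.330 and 0.279. TFRC transcripts outnumbered those of SLC40A1 in all 4 growth libraries, and SLC40A1 transcripts outnumbered those of TFRC in both resting ones. The proteins were not measured here. Within a library the transcripts of TFRC, FTH1 and SLC40A1 may come from different cells. The part of the marker changes between phases in these ratios was not tested. The growth phases overlapped in the ratio to FTH1 and lay close together in the ratio to SLC40A1.

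**Figure D3:**
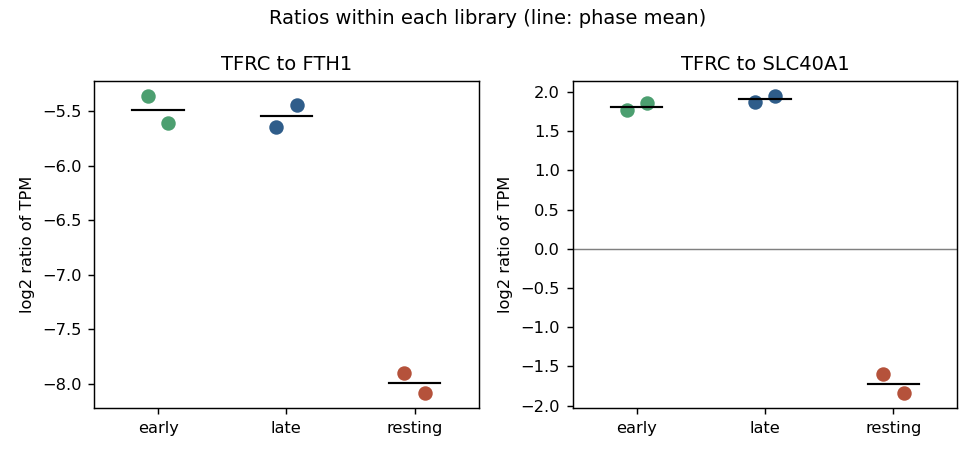
Log2 ratio of TPM within each library, TFRC to FTH1 on the left and TFRC to SLC40A1 on the right; points are libraries and lines are phase means, and the grey line on the right marks equal levels. The ratio to FTH1 lay between −5.64 and −5.36 in the 4 growth libraries and at −7.90 and −8.08 at rest, and the ratio to SLC40A1 was above 0 in growth and below 0 at rest.

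Heme oxygenase and the copper importer fell at rest as well. HMOX1 went from 44.6 and 43.1 TPM in late growth to 14.8 and 21.6 TPM, which is −1.25 on the log2 scale with a standard error of 0.19 (adjusted p = 0.0030). The resting pair is the most uneven of the 3, but both lie below the 34.4 TPM of the lowest growth library. SLC31A1 fell from 22.8 and 24.1 TPM to 11.3 and 9.53 TPM, or −1.10 with a standard error of 0.19 (adjusted p = 0.0043). SLC11A2 did not pass the test, at 18.3 and 20.6 TPM against 15.9 and 17.0 TPM. Its log2 fold change of 0.23 had an interval of −0.27 to 0.72.

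Compared with early growth, the resting phase differed in the same 5 genes and in SLC11A2. This comparison shares its resting libraries with the preceding one, so it is no separate support. Of the 6 tested members 2 rose and 4 fell, where 15.8% of all tested genes rose and 34.0% fell, 49.8% in either direction. The log2 fold change was −2.06 for TFRC (adjusted p = 0.00018), 1.32 for SLC40A1 (adjusted p = 0.0015) and 0.35 for FTH1 (adjusted p = 0.0010). For HMOX1 it was −0.98 (adjusted p = 0.0077), for SLC31A1 −1.36 (adjusted p = 0.0019) and for SLC11A2 −0.69 (adjusted p = 0.031). The call of SLC11A2 was lost without early growth replicate 2 (−0.45, adjusted p = 0.0716), without late growth replicate 1 or 2 (adjusted p = 0.0691 and 0.0695), without resting replicate 1 or 2 (adjusted p = 0.151 and 0.0948), with only the 2 phases in the fit (adjusted p = 0.0682) and with each of the 3 scalings, of which median-of-ratios scaling gave −0.37 (adjusted p = 0.225).

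The wider metal pathways were followed in 9 lists, which were chosen with earlier results of these data known. HEPHL1 was left out of all counts, and the other members are included. A gene such as HEPH can stand in more than 1 list. From early to late growth most of the called genes in these lists fell, as they did over all tested genes (28.4% fell and 5.24% rose). Copper enzymes fell in 9 of 11 genes and rose in 0 (10 and 0 at an unadjusted p under 0.05), with a median of −1.07. SOD3, the extracellular superoxide dismutase, was at 2.91 and 2.98 TPM before and is listed at 0 in both late growth libraries. LOX, the lysyl oxidase that crosslinks collagen, had 21.1 and 16.4 TPM against 6.47 and 7.19 TPM (−1.33, adjusted p = 0.0049). LOXL3, a related oxidase, fell too (−2.21, adjusted p = 0.011). Fibroblasts make the lysyl oxidases, and the fibroblast markers went down over the same step from at least 0.276% to at most 0.0520% of TPM, whose part was not tested.

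For comparison, 28.4% of all tested genes fell and 5.24% rose at this step. Among the genes of iron uptake and import 5 of 12 fell and 0 rose (the same at an unadjusted p under 0.05), with a median of −0.89. The largest fall was that of SCARA5, a scavenger receptor that takes up ferritin, from 21.8 and 24.5 TPM to 0.476 and 1.14 TPM (−3.76, adjusted p = 0.00029). CYBRD1, a ferric reductase, went from 6.49 and 5.97 TPM to 1.02 and 1.32 TPM (−1.74, adjusted p = 0.0031). In iron storage, chaperoning and export 2 of 6 fell and 0 rose (3 and 0 at an unadjusted p under 0.05), namely HEPH (−0.93, adjusted p = 0.0039) and CP (−1.26, adjusted p = 0.030). In iron sensing and the hepcidin axis, 1 of 9 rose, the BMP receptor ACVR1 (0.37, adjusted p = 0.038), and 2 fell, the iron regulatory protein IREB2 (−0.59, adjusted p = 0.012) and the ligand BMP6, which induces hepcidin in mammals (−2.81, adjusted p = 0.028). BMP6 was uneven in early growth, with 10.9 and 59.2 TPM, and stood at 2.30 and 3.38 TPM in late growth.

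In heme synthesis 4 of 11 genes were lower and 0 higher (5 and 0 at an unadjusted p under 0.05), beside 28.4% of all tested genes lower, and 0 were called with median-of-ratios scaling or quantile normalization. The 4 include the first enzyme of the pathway, ALAS1 (−0.65, adjusted p = 0.018), CPOX (−0.69, adjusted p = 0.0096) and the last, FECH, which inserts iron (−0.81, adjusted p = 0.037). Heme breakdown and transport had 2 of 12 genes higher and 5 lower, beside 5.24% and 28.4% of all tested genes. ABCG2, an exporter that also carries porphyrins, fell the most, from 29.6 and 21.5 TPM to 0.585 and 1.11 TPM (−3.84, adjusted p = 0.00042). The heme-binding proteins HEBP1 (−0.99, adjusted p = 0.021) and HEBP2 (−0.91, adjusted p = 0.031) followed. Endothelial markers fell over the same step, from at least 0.0242% to at most 0.00262% of TPM. Their part in the ABCG2 level was not tested. In iron-sulfur cluster assembly 7 of 24 genes were lower and 0 higher (9 and 1 at an unadjusted p under 0.05), a share lower that is near that of all tested genes. Among the 7 were CIAO1 (−0.66, adjusted p = 0.0068) and MMS19 (−0.54, adjusted p = 0.039). The list of NRF2 targets and regulators had 1 of 15 higher and 4 lower, among them SLC7A11 (−0.99, adjusted p = 0.049) and KEAP1 (−0.75, adjusted p = 0.025).

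The metallothioneins, which bind copper and zinc, went against this. In copper import, chaperones and export 2 of 14 genes rose and 1 fell, where 5.24% of all tested genes rose and 28.4% fell. MT3 rose from 2699 and 2987 TPM to 4683 and 4099 TPM (0.63, adjusted p = 0.0034), and its neighbour MT4L from 5768 and 5946 TPM to 8189 and 6823 TPM (0.35, adjusted p = 0.025, but −0.16 and not called with quantile normalization). The gene that fell was GSS, the glutathione synthetase (−0.84, adjusted p = 0.0037).

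Many of these calls depended on the scaling and on single libraries. Of the 26 genes named for this step by rule, 8 were called under all 16 alternatives (ABCG2, CYBRD1, GSS, HEPH, LOX, MT3, SCARA5 and SOD3). Median-of-ratios scaling brings the median of all tested genes from −0.31 to −0.01. With it 14 calls were lost, 0 of 11 heme synthesis genes were called, and 3 of 24 iron-sulfur genes were higher with 0 lower. Of the 15 NRF2 targets and regulators 4 were then higher and 0 lower, and of 12 heme breakdown and transport genes 3 and 2. With quantile normalization the counts were 3 and 1 in each of the iron-sulfur, NRF2 and heme breakdown lists, and 0 and 0 in heme synthesis. Over all tested genes 1728 were higher and 1968 lower with the former scaling, and 1611 and 1775 with the latter. Copper enzymes were lower in 7 of 11 genes with median-of-ratios scaling (median −0.73) and with quantile normalization (median −0.76). In iron uptake and import 4 and 3 of 12 were lower in the same order, and 0 were higher in either list. Without late growth replicate 1 or 2, 17 and 15 of the 26 calls were lost, without early growth replicate 1 or 2, 8 and 6, and without resting replicate 1 or 2, 11 each. Among the 18 genes that lost the call somewhere, the highest adjusted p ran from 0.0538 for CIAO1 to 0.429 for SLC7A11.

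**Figure D4:**
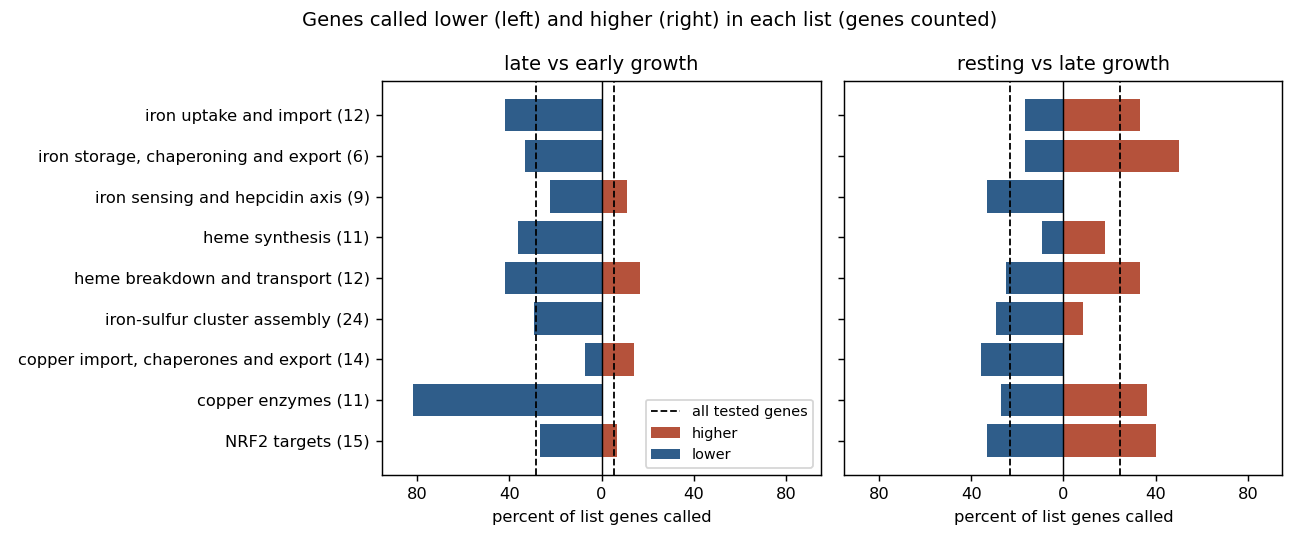
Percent of the tested genes in each of 9 lists that were called lower (to the left) or higher (to the right) at an adjusted p under 0.05, with the number of genes counted in brackets and HEPHL1 left out; dashed lines give the shares over all tested genes. From early to late growth 9 of 11 copper enzyme genes were lower, and from late growth to rest 5 of 14 genes of copper import, chaperones and export were lower and 0 higher.

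From late growth to rest the metallothioneins fell together with the copper importer. In copper import, chaperones and export 5 of 14 genes fell and 0 rose (6 and 0 at an unadjusted p under 0.05), with a median of −0.45 beside 0.02 for all tested genes. The 5 were SLC31A1, MT3, MT4L, COX11 and the glutathione synthetase GSS. The exporters ATP7A and ATP7B are not among the 14, so copper export is not covered by this count. Over all tested genes 23.1% fell and 24.7% rose. MT4L fell from 8189 and 6823 TPM to 1375 and 1405 TPM (−2.43, adjusted p = 1.2e-05), and MT3 from 4683 and 4099 TPM to 1161 and 1108 TPM (−1.95, adjusted p = 2.1e-05). Both resting libraries were below all growth libraries for both genes. Keratinocyte markers also fell at this step, from at least 2.01% to at most 1.15% of TPM, and their part in the metallothionein levels was not tested. The copper chaperone ATOX1 (280 and 262 TPM against 224 and 245 TPM) and the copper enzyme SOD1 (246 and 253 TPM against 277 and 296 TPM), chosen after their values were seen, were not called (adjusted p = 0.10 and 0.067).

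The lists of iron sensing and of iron uptake are read beside all tested genes, of which 24.7% rose and 23.1% fell. In iron sensing and the hepcidin axis 3 of 9 genes were lower and 0 higher (3 and 2 at an unadjusted p under 0.05), with a median of −0.12, and with TPM rescaled without erythroid and muscle genes 2 were lower and 2 higher. ACO1, the cytosolic aconitase that without its iron-sulfur cluster serves as an iron regulatory protein, went from 80.3 and 85.5 TPM to 29.4 and 31.0 TPM (−1.43, adjusted p = 0.00015). BMP2 fell by 1.23 (adjusted p = 0.0044) and ACVR1 by 0.33 (adjusted p = 0.041) on the log2 scale. Among iron uptake and import genes 4 of 12 rose and 2 fell. SCARA5 reached 63.6 and 66.2 TPM (5.21, adjusted p = 2.6e-05) and CYBRD1 28.2 and 31.4 TPM (3.83, adjusted p = 6.8e-05), opposite to TFRC. Both had been near their lowest in late growth, as had the fibroblast markers, which reached 0.417 and 0.423% of TPM at rest, and the part of those cells was not tested. In iron storage, chaperoning and export 3 of 6 rose and 1 fell, in a list that does not hold FTL, which fell. Beside SLC40A1 and FTH1 the third to rise was PCBP2, a binding protein of RNA and iron (1.26, adjusted p = 0.042). PCBP2 was low throughout, at 0.422 and 0.934 TPM in late growth and 3.14 and 2.81 TPM at rest. NCOA4, the receptor for the breakdown of ferritin, fell by 0.44 (adjusted p = 0.025).

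In heme synthesis 2 of 11 genes rose and 1 fell, where 24.7% of all tested genes rose and 23.1% fell. ALAS2, the erythroid form of the first enzyme, was not analysed here. Erythroid markers rose at this step from at most 0.102% to at least 5.58% of TPM, and their part in the heme genes was not tested. ABCB10, a mitochondrial transporter (0.87, adjusted p = 0.0044), and CPOX (0.38, adjusted p = 0.048) were higher and PPOX lower (−0.52, adjusted p = 0.041). Of heme breakdown and transport 4 of 12 rose and 3 fell. Among the rises was ABCG2 (14.6 and 15.3 TPM at rest, 3.13, adjusted p = 0.00026). Endothelial markers rose at this step, from at most 0.00262% to at least 0.0139% of TPM, and their part in the ABCG2 rise was not tested. The heme exporter FLVCR1 (−1.26, adjusted p = 0.0084) and HMOX1 fell. In iron-sulfur cluster assembly 7 of 24 genes were lower, a share near that of all tested genes. Only 2 were higher, where 24.7% of all tested genes rose, and the median of the list was −0.39 beside 0.02 for all tested genes. FAM96B (−1.05, adjusted p = 0.0013) and NUBP1 (−0.92, adjusted p = 0.0012), of the cytosolic machinery, were lower, while ISCA1, of the mitochondrial machinery, was higher (1.22, adjusted p = 0.00060).

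Copper enzymes rose in 4 of 11 genes and fell in 3, where 24.7% of all tested genes rose and 23.1% fell. The rises were led by SOD3, listed at 0 in late growth and at 35.0 and 31.6 TPM at rest, LOX (30.7 and 26.7 TPM at rest, 1.92, adjusted p = 0.00055) and AOC3, an amine oxidase of vessels and smooth muscle (1.72, adjusted p = 0.00025). Smooth muscle markers rose with them, from at most 0.0481% to at least 5.06% of TPM, and this was not tested as a source. The 3 copper enzymes that fell were PAM (−0.71, adjusted p = 0.0059), MOXD1 (−0.49, adjusted p = 0.0014) and LOXL1 (−0.33, adjusted p = 0.015). LOXL1, more abundant than LOX, went from 102.6 and 102.2 TPM to 78.6 and 83.8 TPM, opposite to LOX. Among NRF2 targets and regulators 6 of 15 rose and 5 fell. KEAP1, the repressor of NRF2, rose (2.14, adjusted p = 0.00028), while the thioredoxin TXN fell from 1365 and 1280.1 TPM to 430.3 and 449 TPM (−1.59, adjusted p = 6.7e-05) and the sulfiredoxin SRXN1 fell as well (−1.33, adjusted p = 0.010).

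At this step 20 of the 27 genes named by rule were called under all 16 alternatives. The calls of ACVR1, CPOX, FLVCR1, NCOA4, PCBP2, PPOX and SRXN1 were lost under some of them, all 7 without resting replicate 1 or without resting replicate 2, 6 without late growth replicate 1 and 6 without late growth replicate 2, with a highest adjusted p between 0.0729 and 0.254. With TPM rescaled without erythroid and muscle genes, 3 of 24 iron-sulfur genes were lower in place of 7. Of the 11 heme synthesis genes 3 were then higher and 0 lower. With median-of-ratios scaling 1 was higher and 2 lower, and with quantile normalization 2 and 2.

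**Figure D5:**
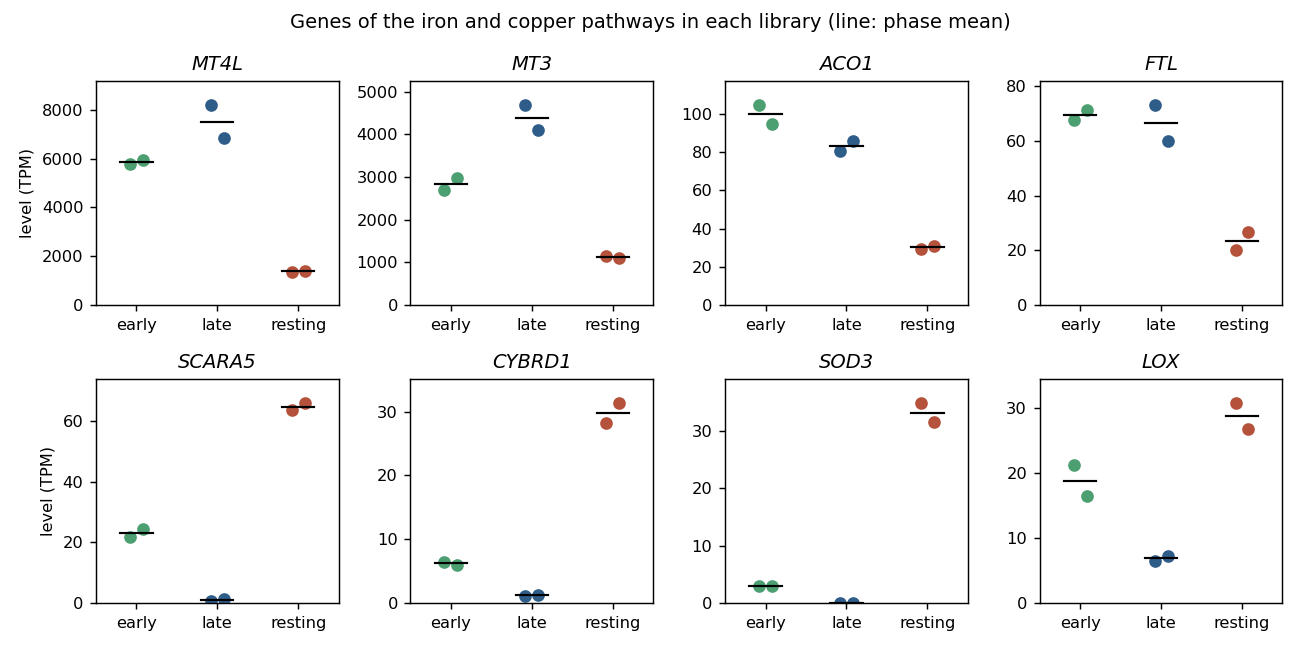
Level in TPM of the metallothioneins MT4L and MT3, of ACO1 and FTL, and of SCARA5, CYBRD1, SOD3 and LOX in each library; axes start at 0, points are libraries (2 per phase) and lines are phase means. The genes of the upper row were lowest at rest, and those of the lower row were lowest in late growth and highest at rest.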

How the data were processed

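Bulk RNA-seq of 6 libraries was analysed, 2 for each of 3 phases, grouped by their titles. According to the methods and the submitters' processing notes, the authors made TruSeq libraries, which do not mark strand, sequenced short single reads and computed TPM values with StringTie at default parameters on the chicken build GRCg6a. No aligner is named in those sources. An Ensembl annotation is named there, while the deposited table lists symbols and LOC numbers. These TPM were used as deposited. Read totals are unknown, so precision rests on how far the 2 libraries of each phase differ. Reads shared with related genes, such as those of the metallothioneins, and reads of antisense genes cannot be told apart.

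The 13063 genes with a mean above 1 TPM were tested on log2(TPM + 1), which understates changes of low genes, with limma 3.58.1 in R 4.3.3: 1 fit of the 3 phases, a variance trend (prior degrees of freedom 3.01) and Benjamini-Hochberg adjustment over all genes. The smallest two-sided p of an exact permutation of 2 against 2 libraries is 0.333. The methods used DESeq2 on read counts, which TPM do not allow. The fit was also run on simulated data in which few genes changed and all genes together did not shift. That run does not bear on the choice of scaling. Libraries of equal replicate number showed no visible shared deviation: their deviations from the phase means had correlations of −0.0289, 0.00830 and 0.0149. Whether such libraries share a bird or a batch cannot be told from these values.

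The members and lists were chosen with earlier results of these data known. Named genes are the 9 members, up to 3 called genes with the largest change in each list from early to late growth and from late growth to rest, the 5 genes closest to HEPHL1 and markers; a few genes named by this rule are counted but not reported here. List symbols MT4, PERP and MRC1L-B were matched to MT4L, PERP1 and MMR1L4 through the RefSeq gene table, whose assembly differs from that of the deposited values, so no coordinates are given. Alternatives were pseudocounts of 0.1 and 0.5, no filter, a filter at a mean of 5 TPM, 3 scalings, a fit of only the 2 phases in question, a replicate block, robust moderation, leaving out each library, and 2 stricter thresholds.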

Additional observations from a re-analysis of the deposited data

How the results depend on the processing

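All counts are of genes called by limma. From early to late growth 1 of the 6 tested members was called. The count was 0 with median-of-ratios scaling (3 at an unadjusted p under 0.05), 0 with only the 2 phases in the fit, 0 at an adjusted p under 0.05 with a log2 fold change above 1, and 0 at an adjusted p under 0.01 with one above 2 (each 1 at an unadjusted p under 0.05), and it was 0 to 1 when a library was left out. From late growth to rest it was 5, and 5 whichever library was left out, but 0 at an adjusted p under 0.01 with a log2 fold change above 2 (5 at an unadjusted p under 0.05). Between rest and early growth it was 6, and 5 to 6 when a library was left out, 3 with the threshold of 1 and 1 with the threshold of 2. Over all tested genes 4394 were called from early to late growth, 1747 to 5124 when a library was left out (1747 without late growth replicate 1 and 1815 without late growth replicate 2), 2224 with the threshold of 1 and 604 with the threshold of 2. From late growth to rest 6241 were called, 4008 to 7501 when a library was left out (4071 without late growth replicate 1 and 4008 without late growth replicate 2), and 3795 and 1561 with the thresholds. Between rest and early growth 6500 were called, 4453 to 7307 when a library was left out, and 3917 and 1227 with the thresholds. Of the calls from early to late growth 15.6% were higher in late growth, 46.8% with median-of-ratios scaling, 47.6% with quantile normalization and 31.0% without early growth replicate 1. Of those from late growth to rest 51.7% were higher at rest and 61.6% with TPM rescaled without erythroid and muscle genes, and between rest and early growth 31.7% were higher at rest, 51.3% with median-of-ratios scaling, 47.1% with quantile normalization, 40.6% with rescaled TPM and 42.2% without early growth replicate 1. The direction of uncalled members turned from early to late growth with median-of-ratios scaling, to 0.21 for TFRC, 0.27 for FTH1, 0.10 for SLC40A1 and 0.068 for SLC31A1, and with quantile normalization, to 0.16 for TFRC, 0.14 for SLC40A1 and 0.0612 for SLC31A1. Apart from the thresholds, the cause of these shifts was not tested. The replicate number as a block changed no call of a member: the counts stayed at 1, 5 and 6, and over all genes they were 3700, 5757 and 6019. Of the genes named by rule, 6 calls from early to late growth and 3 from late growth to rest were lost with the block. The ratio of TFRC to FTH1 moved by less than the spread between libraries with pseudocounts of 0.1 and 0.5. With 2 libraries a phase and no read totals, an uncalled member may still have changed. The interval given for it holds for the main scaling, and under another scaling the change can lie outside it, as for FTH1 from early to late growth.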
